A study of Rattus norvegicus with 6 samples.

Results

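Ultraconserved elements are stretches of DNA that human, mouse and rat genomes share base for base. Some lie in exons, introns or flanks of genes for RNA-binding proteins and developmental transcription factors, and others lie far from any gene. RNAs that carry such a stretch are called transcribed ultraconserved regions. They can come from either strand, as part of a host gene's transcript or as a separate noncoding RNA, and several have been studied in tumours and in heart, liver and gut.

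The array carried 959 probes for these elements, of 38804 non-control probes in all. They were taken by name: a probe name that starts with uc., followed by the element number and a plus or minus sign for the strand. The probes covered 480 elements, with 479 plus-strand and 480 minus-strand probes, so that 479 elements had both strands and uc.404 had its minus strand alone. Each probe was a single spot on each array. Neither the strand convention nor the probes' sequences are given in the sources used here, and no sequence or genome position is printed for them. The element numbers follow the order of the elements along the human chromosomes, so neighbouring numbers often lie near each other.

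The samples were thoracic aortas of 6 spontaneously hypertensive rats (SHR), an inbred strain with inherited high blood pressure, so the control group was hypertensive too. The 3 peptide rats were injected intravenously for 28 days with a peptide from Ganoderma lingzhi, a medicinal mushroom, at a daily dose of 5 mg/kg, and the 3 control rats received saline. Treatment began at 12 weeks of age and the aortas were collected at 16 weeks. The labels call the rats male in one field and female in another. Each rat had its own one-colour array. All 3 controls and peptide 1 shared a scan identifier and are taken here as slide 1. Peptide 2 and 3 shared another and are taken as slide 2. Of 25 marker genes listed for smooth muscle, endothelium and the other cell types of an aorta, 0 had a probe that could be named, so the tissue was not checked against its markers.

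The first question was how much RNA from ultraconserved elements the control aorta held. Their probes were dim. The median processed signal of the 959 probes, in arbitrary intensity units, was 21.9, 25.8 and 29.1 on control 1, 2 and 3, against 70.7, 77.0 and 85.8 for all non-control probes. After each array's log2 signal was lowered by its 75th percentile, the mean of the controls had a median of -3.21 over the ultraconserved probes and -1.59 over all probes. The ultraconserved median was thus 3.06-fold lower and lay at percentile 15.7 of all probes. With normexp background correction, which adds an offset of 50 to every signal, it was 1.42-fold lower, at percentile 16.3. The percentile within a single control array was 15.9 ± 0.149 (SD, n = 3), so the low position varied little between these rats. Because probes also differ in affinity, the signal of a probe is not a measure of RNA copies that can be set against another probe's, and positions are given as a description. Of the 959 probes, 133 lay above the median of all probes, 328 (34.2%) lay in the lowest 10% of the array and 15 (1.56%) in the highest 10%, with 0 in the highest 1%. The plus-strand and minus-strand probes had nearly the same median, at -3.21 and -3.20.

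Most of these dim probes were still measured. The call for a signal well above background, made by the scanner software, held for 79.8% to 83.5% of ultraconserved probes in the controls. It held for 88.6%, 92.9% and 91.1% on peptide 1, 2 and 3, against 95.8% to 98.2% of the other probes over the 6 arrays. This call therefore came more often on the peptide arrays. The lowest signal called well above background was 8.35, 9.53 and 10.2 on control 1, 2 and 3, and lower, at 5.86, 6.53 and 6.87, on peptide 1, 2 and 3. On all 6 arrays 733 ultraconserved probes (76.4%) were well above background, against 93.8% of all non-control probes. Of the 733, 373 were on the plus and 360 on the minus strand. A further 46 ultraconserved probes were well above background on no array. For 290 of the 479 elements both strands were called on all 6 arrays. For 83 the plus strand alone was, for 70 the minus strand alone, and for 36 neither.

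The brightest probes stood far above this low level. The uc.141- probe had processed signals of 10485, 4253 and 4077 on control 1, 2 and 3 and 3923, 6951 and 5230 on peptide 1, 2 and 3, which placed it at percentile 97.4 of all probes in control aorta. The next was uc.268-, at 10074, 3561 and 4344 on the controls and 3262, 5616 and 4224 on the peptide arrays. The third was uc.154+, at 7245, 2685 and 2955 on the controls and 2762, 3777 and 2771 on the peptide arrays. In each of these probes control 1 was the highest array, and the 2 other controls lay within the range of the peptide arrays or close to it.

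They were followed by uc.420+, uc.46-, uc.455-, uc.471+, uc.45- and uc.408-, and by the plus probe of an element studied elsewhere for its part in renewal of the gut lining, between percentile 93.3 and 94.9. Their order is not firm. Neighbours among the 10 brightest differed by 0.01 to 0.48 in mean log2 signal, while the SD over the 3 controls ran from 0.47 to 0.95. Control 1 was the highest of the 6 arrays for 10 of these 10 probes, by a median of 1.21 in normalised log2 signal over the mean of the other two controls. It was also the highest for 2557 of the 3866 other probes in the top 10% of the array (66.1%), by a median of 0.84. Both sets were picked by the control mean, which includes control 1 and so favours probes high on it. These counts therefore only describe the sets.

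The 15 probes in the top 10% came from 14 elements, 10 on the minus and 5 on the plus strand. Their opposite strands were mostly ordinary: 10 of the 15 lay below the median of all probes. The opposite strand of uc.141- was at 39.1 to 58.9 over the 6 arrays, and that of uc.154+ was at 30.3 to 48.2. In uc.420 both strands were in the top 10%. Its plus probe was at 4464, 2349 and 2139 on the controls and 2272, 1853 and 1391 on the peptide arrays, and its minus probe at 4393, 1196 and 1661 and then 4638, 2226 and 2284. The plus probe was the brighter on all 3 controls, by little on control 1, and the minus probe was the brighter on all 3 peptide arrays.

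The second question was whether an element's signal came mainly from one strand. The difference between strands was taken within each array as the log2 signal of the plus probe minus that of the minus probe, which a constant scaling of an array cannot change but a background correction can. It mixes RNA abundance with probe affinity, so it was not tested against 0, and its constancy over the 6 arrays is described. Of the 290 elements with both strands well above background on all 6 arrays, 210 (72.4%) had the same brighter strand on every array, the plus strand in 102 and the minus strand in 108. The median size of the difference was 2.03-fold, with quartiles at 1.39-fold and 3.55-fold. The mean differences spread over the elements with an SD of 2.03, while the median SD of an element over the 6 arrays was 0.44. A difference of at least 2-fold, with one sign on all arrays, was found in 147 elements, 68 toward plus and 79 toward minus. At 4-fold there were 63, 22 toward plus and 41 toward minus, and at 32-fold 16, 4 toward plus and 12 toward minus. With normexp 207 elements kept one sign on all arrays, but 61 differed by at least 2-fold, 29 by at least 4-fold and 1 by at least 32-fold, so the sizes below depend on how background was treated. Minus-strand probes made up more of the steep differences in count, although the split of the 210 was nearly even.

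The steepest element was uc.141, with a mean difference of -6.82 ± 0.66 (SD over 6 arrays), or 113-fold toward minus, and 66.6-fold on the array where it was smallest. Toward plus it was uc.154, at 6.45 ± 0.56 (SD over 6 arrays), or 87.6-fold, and 65.6-fold where it was smallest. With normexp these means were 41.4-fold and 28.0-fold. For the 5 elements per direction with the steepest differences the mean ran from 29.1-fold to 113-fold, and with normexp from 8.33-fold to 41.4-fold. In both, every array lay on the same side, and the weaker strand was itself well above background.

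Further elements leaned nearly as steeply to the minus strand, the first of them uc.378. Its minus probe was at 404, 1275 and 1461 on the controls and 1272, 1708 and 1789 on the peptide arrays, and its plus probe at 17.03 to 28.0. For uc.408 the minus probe was at 3413, 1139 and 2480 and then 2645, 2857 and 1875, with a mean difference of -5.59 ± 0.40 (SD over 6 arrays), the steadiest of these 5. The mean differences of uc.47 and uc.50 were -5.57 and -5.55.

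Toward plus, uc.415 was at 1799, 1503 and 1422 on the controls and 1035, 2260 and 2407 on the peptide arrays, against 14.5 to 32.5 for its minus probe. The plus probe of the gut-renewal element was at 4676, 1575 and 1237 on the controls and 1366, 3035 and 3124 on the peptide arrays, against 31.5 to 82.4 for its minus probe. The plus probe of uc.481 was at 2463 on control 1 and between 623 and 1131 on the other 5 arrays.

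The direction of uc.247 was constant but its size was not. Its plus probe was at 119, 1353 and 1626 on the controls and 693, 5345 and 4063 on the peptide arrays, while its minus probe stayed between 25.8 and 52.6. The strand difference therefore ran from 4.4-fold on control 1 to 196-fold on peptide 2, with an SD of 2.08 over the 6 arrays, the largest of all 290 elements. Peptide 2 and 3, both on slide 2, were the highest, and peptide 1 lay between the controls.

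At the other end, 5 elements had the most constant difference over arrays. For uc.178 it was 0.25 ± 0.09 (SD over 6 arrays), with the plus probe at 22.8 to 37.6 and the minus probe at 19.5 to 33.0. The mean differences of uc.169, uc.319 and uc.449 were 0.57, 0.81 and -0.26, with an SD of 0.11 to 0.12. The minus probe of uc.462 was 3.04-fold brighter than its plus probe, within 2.72-fold and 3.32-fold on the 6 arrays, and 1.79-fold brighter with normexp. In all 5 the brighter strand was the same on every array, although the sizes were under 2-fold in 4 of them.

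Some elements had one strand well above background on all 6 arrays and the other on none. There were 27, 15 on the plus and 12 on the minus strand. Their one sign on every array follows from this choice and is not a separate result. Since the dim strand has only an upper bound, no fold is given. Among them uc.92- was the brightest, with a median signal of 174 over the 6 arrays (125 to 467), while uc.92+ was at 1.95 to 4.06. The next was uc.333-, with a median of 86.8, against 3.06 to 5.90 for uc.333+. The bright strand lay above the median of all probes in 2 of the 27, so one-sided detection mostly concerned a faint signal opposite one fainter still.

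Steep differences sometimes ran through several neighbouring numbers. The elements uc.45, uc.46 and uc.47 all leaned to the minus strand. The minus probe of uc.45 was at 4286, 1392 and 1798 on the controls and 2006, 2514 and 2245 on the peptide arrays. The minus probe of uc.46 was at 4944, 2009 and 2203 and then 3686, 2978 and 3830. The next element, uc.48, had strands that could not be told apart, with a mean difference of 0.02 ± 0.43 (SD over 6 arrays) and plus higher on 3 of 6 arrays. Then uc.49 and uc.50 leaned to minus again, with mean differences of -5.29 and -5.55.

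At the end of the numbering uc.479, uc.480 and uc.481 all leaned to plus, at 2.45, 3.24 and 4.86. In 8 places at least 2 neighbouring numbers had a same-sided difference of at least 4-fold. Among all 63 elements of that size, 14 pairs had neighbouring numbers and 10 of these shared the brighter strand (71.4%), where the shares of plus and minus alone give 54.5%. Among all 290 elements the share was 46.0% of 174 pairs, and the Pearson correlation of neighbours' differences was 0.09, so no general likeness of neighbours was seen. This look at neighbours was chosen after the values were seen.

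The level of one strand said little about the other. Across the 290 elements the control signals of plus and minus probes had a Pearson correlation of 0.14 and a Spearman correlation of 0.18, over points that share the same 3 arrays. Over the 290 elements the brighter strand had a median percentile of 35.7 among all probes, and the dimmer strand one of 15.5. In the 63 elements with a difference of at least 4-fold these were 77.9 and 20.1. The 63 were picked for a wide gap between strands, so this gap describes them and adds nothing to the correlation.

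In the other 80 elements the brighter strand changed from array to array. In 47 of them the strands were within 2-fold on every array, and in 33 they differed by at least 2-fold on at least 1 array, up to 6.53-fold in uc.132, named after its values were seen. In 19 of the 80 the 4 arrays of slide 1 lay on one side and the 2 of slide 2 on the other, and in 2 the groups did. A single array stood alone in others, most often control 3 (10 elements) and peptide 2 (8 elements). The strand differences were closer between arrays of a slide than between slides. The Pearson correlation over the 290 elements was 0.928 to 0.984 for the 7 pairs on a slide and 0.889 to 0.932 for the 8 pairs on different slides. The root mean square difference averaged 0.583 and 0.946.

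The third question was which elements differed between peptide and control aorta. No ultraconserved probe passed the test. In whole aorta, fewer cells of a type and less RNA per cell cannot be told apart. The fit took the 37723 probes that were called in at least 3 of the 6 arrays, 846 of them ultraconserved. The other 113 ultraconserved probes were too dim to be tested, among 1081 of all 38804 non-control probes. Of the 846, 18 were tested through the peptide arrays alone, with 0 control arrays above background. With limma and Benjamini-Hochberg adjustment over all tested probes, 0 of the 846 had an adjusted p under 0.05, as for all tested probes (0%), and the smallest adjusted p of an ultraconserved probe was 0.757.

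At an unadjusted limma p under 0.05 there were 40 ultraconserved probes (4.73%), against 2.83% of all tested probes. Of these, 5 were higher in the peptide group, against 0.535% of all tested probes, and 35 lower, against 2.3%. The groups did not overlap in 21 probes that were higher (2.48%, against 1.28% of all tested probes) and in 36 that were lower (4.26%, against 4.19%). These counts include the 18 probes tested through the peptide arrays alone, a filter that favours higher values in the peptide group. The split into higher and lower rested on the scaling. The median difference of the 846 probes was -0.30 where that of all tested probes was itself -0.21. After quantile normalization these were -0.01 and -0.03, and 44 ultraconserved probes were higher and 20 lower (7.57% called, against 3.89% of all tested probes, 690 higher and 778 lower). After median scaling 33 were higher and 24 lower (6.74%, against 3.18%, 603 higher and 598 lower). After normexp 1 was higher and 234 lower (27.8%, against 15.7%, 152 higher and 5756 lower). The median differences with normexp were -0.79 for the ultraconserved and -0.49 for all tested probes. Both sets thus shifted toward lower, the ultraconserved probes further.

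Single arrays moved these counts too. Without control 1, 2 and 3 there were 125, 25 and 15 ultraconserved probes at an unadjusted p under 0.05, or 14.8%, 2.96% and 1.77%, against 9.65%, 3.17% and 1.86% of all tested probes. Without peptide 1, 2 and 3 there were 320, 5 and 6, or 37.8%, 0.591% and 0.709%, against 24.3%, 1.24% and 0.631%. The share of ultraconserved probes was thus below that of all probes without control 2, control 3 or peptide 2, and the excess over all probes did not hold there. With peptide 1 left out, all controls are on one slide and all peptide arrays on the other, so that slide and treatment cannot be told apart. The median difference from the controls was 0.08 in peptide 1 and -0.49 in peptide 2 and 3 for the tested ultraconserved probes, and 0.01 and -0.33 for all tested probes. A fit with slide as a block rests on the single comparison of peptide 1 with the 3 controls. In it 8 ultraconserved probes had an unadjusted p under 0.05 (0.947%, against 1.68% of all tested probes), 2 of them higher (against 0.682%) and 6 lower (against 0.993%).

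Of the probes that were higher, uc.246- had the smallest p. Its normalised log2 signal was -0.82, 0.22 and 0.33 in control 1, 2 and 3 and 0.25, 2.23 and 1.89 in peptide 1, 2 and 3. Peptide 2 and 3 stood alone, and peptide 1 lay among the controls. The difference was 1.54 (SE 0.51, limma adjusted p = 0.757), or 0.33 when slide was a block. The same pattern was found for uc.360-, with -1.34, -0.76 and -0.96 in the controls and -0.83, 0.16 and 0.17 in the peptide group. It was also found for uc.456- (-1.05, -0.52 and -0.45, then -0.46, 0.30 and 0.75) and for uc.448- (-3.07, -2.47 and -2.73, then -2.80, -1.19 and -1.16). Only in uc.399-, a faint probe well above background on 2 of 3 control arrays, did all 3 peptide arrays lie above the controls among these 5, at -3.99, -3.23 and -3.39 against -4.16, -4.31 and -4.38, and with normexp its difference of 0.75 turned to -0.59.

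Of the probes that were lower, uc.153- had the smallest p. It was at -0.92, -0.47 and -0.47 in the controls and at -1.04, -2.21 and -2.16 in the peptide group, so the groups did not overlap although peptide 1 lay next to control 1. The difference was -1.19 (SE 0.36, limma adjusted p = 0.757), or -0.42 when slide was a block. The values of uc.447+ were -1.12, -2.33 and -2.04 in the controls and -2.49, -3.23 and -2.998 in the peptide group. Those of uc.146-, a faint probe, were -4.29, -4.32 and -4.11, and then -4.75, -5.10 and -5.31. In both, all peptide arrays lay below all controls. The groups overlapped in uc.79+ (-3.17, -2.02 and -2.33, then -3.01, -4.17 and -4.06) and in uc.432- (-2.80, -2.39 and -2.09, then -2.58, -4.10 and -4.19), where peptide 1 lay within the controls. In the 40 probes at an unadjusted p under 0.05, the median size of the difference from the controls was 0.21 in peptide 1 and 1.21 in peptide 2 and 3. Peptide 2 and 3 were the farther from the controls in 40 of 40. The 40 were chosen by their p on these same arrays, which favours large distances, and no share over all tested probes was taken.

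Next, 378 elements were taken that had both strands called together on at least 3 arrays and values on all 6. Across them the peptide differences of plus and minus probes had a Pearson correlation of 0.00034 and a Spearman correlation of 0.0089. For peptide 1 alone, on the slide of the controls, they were 0.123 and 0.119, and for peptide 2 and 3 the Pearson correlation was -0.0033. With normexp the Pearson correlation over all arrays was 0.172. The points share arrays and scaling, and all these values are weak. The 40 probes at an unadjusted p under 0.05 came from 39 elements, so both strands were among them in 1.

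The ratio between strands was then compared between the groups, element by element, in a limma fit over 379 strand pairs. In these, both strands were called together on at least 3 arrays. In 14 of the 379 a strand was well above background on no control array. Those pairs entered through the peptide arrays alone, which favours a shift between groups. With Benjamini-Hochberg adjustment over these 379 pairs, 0 passed 0.05 (0%), and the smallest adjusted p was 0.465. At an unadjusted p under 0.05 there were 35 (9.23%), 19 with the ratio moved toward plus in the peptide group (5.01%) and 16 toward minus (4.22%). When slide was a block there were 9 (2.38%). The groups did not overlap in 31 pairs toward plus (8.18%) and in 23 toward minus (6.07%). The pairs are the whole set that this fit covers, so there is no wider set of probes to give a share beside these. Single arrays moved the count, to 19 and 13 without control 2 and 3 and to 120, 13 and 9 without peptide 1, 2 and 3. Without peptide 1, 48 pairs passed the adjusted threshold, with slide and treatment again not separable. In the 35 the median size of the shift was 0.39 in peptide 1 and 1.09 in peptide 2 and 3, and peptide 1 lay on the same side as the mean in 34. The mean includes peptide 1 and the 35 were chosen by its p, which favours such agreement, so it is not separate support.

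In 7 of these 35 elements one strand was well above background on no control array, so that the control ratio is only a bound and the size of the shift is not given. They include uc.29, which had the smallest p of all pairs. Its plus probe was at 6.7, 7.5 and 8.5 on the controls and at 14.4, 12.3 and 12.2 on the peptide arrays, and its minus probe was between 16.8 and 25.01 throughout. They also include all 3 elements with the smallest p toward minus, uc.79, uc.410 and uc.110, whose minus probes were at 4.6 to 8.5 on the controls and at 8.8 to 15.6 on the peptide arrays. These are signals close to the detection limit, which was itself lower on the peptide arrays.

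Among elements with both strands measured on all arrays, the minus lean of uc.153 was smaller in the peptide group. The log2 strand difference was -0.82, -1.05 and -1.06 in the controls and -0.37, 0.23 and 0.10 in the peptide group. The shift was 0.97 (SE 0.27, limma adjusted p = 0.465), or 0.61 when slide was a block. Its plus probe was nearly level, between 75.6 and 90.6 on the 6 arrays. The plus lean of uc.356 was larger in the peptide group, at 3.50, 3.58 and 3.56 against 3.98, 5.19 and 5.13. Each peptide array exceeded each control, by a shift of 1.22 (SE 0.36, limma adjusted p = 0.465), or 0.43 when slide was a block.

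In uc.420, the element bright on both strands, the strand difference was 0.02, 0.97 and 0.37 in the controls and -1.03, -0.26 and -0.72 in the peptide group. The shift was -1.12 (SE 0.34, limma adjusted p = 0.465), and it was as large when slide was a block, at -1.48 (SE 0.43). In uc.47 the minus lean was smaller in the peptide group, at -5.99, -5.84 and -6.10 against -4.50, -5.69 and -5.29. The ratio moved by 0.81 (SE 0.34, limma adjusted p = 0.465), or by 1.47 when slide was a block, where peptide 1 was the farthest array. None of these passed the adjusted threshold, and uc.420 and uc.47 are named here from other parts of the naming rule.

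Elements that have been studied elsewhere formed a list of 16, with 32 probes. They too were mostly dim. Of the 32 probes 7 lay above the median of all probes, with a median percentile of 21.7, against 15.7 for all ultraconserved probes. In 13 of the 16 each strand was called on all 6 arrays. The plus strand was the brighter on all arrays in 7 elements, the minus strand in 4, and 5 were mixed. Of the 30 probes tested 0 had an unadjusted p under 0.05 for peptide against control, which is near the 2.83% of all tested probes for a list this short, and their median difference was -0.21, as for all tested probes.

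Besides the gut-renewal element, the bright member was one whose RNA has been described as induced by low oxygen. Its plus probe was at 900, 322 and 391 on the controls and 779, 571 and 372.5 on the peptide arrays, against 69.6 to 168.6 for its minus probe. The plus strand was the brighter on every array. The list element in the gene of the splicing factor TRA2B had its plus probe at 159, 112 and 113 and then 172.7, 146 and 130.0, brighter than minus by a mean of 1.103 ± 0.40 (SD over 6 arrays). The strands of the element in the gene of the RNA-binding protein PCBP2 were closer, at 0.37 ± 0.19 (SD over 6 arrays), with plus higher on 6 of 6 arrays.

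An element studied in cardiac hypertrophy had a dim plus probe, at 11.2, 14.2 and 14.5 on the controls and 12.8, 15.1 and 15.3 on the peptide arrays. The minus probe of uc.8 was well above background on no array, while its plus probe was on all 6. The lean of uc.160, an element silenced by DNA methylation in tumours, was steady, with minus the brighter strand on all arrays by a mean difference of -1.11 ± 0.23 (SD over 6 arrays). The lean of uc.73 was toward plus, at 0.86 ± 0.30 (SD over 6 arrays). In uc.63 the brighter strand changed: plus was the brighter on control 2 and 3 and on peptide 1, and minus on control 1 and on peptide 2 and 3.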

How the data were processed

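Per the file headers, the deposited scanner files give each spot's intensity from Agilent Feature Extraction 11.0.1.1 with background removed, before any scaling of arrays to each other. Per the labels' protocols, ribosomal RNA was removed and random-primed, Cy3-labelled cRNA was hybridised. A further table by the authors, in log2 units and with like distributions in its columns, matched all 959 ultraconserved probes.

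Control spots and outlier spots were left out, which removed 1 ultraconserved spot (uc.94-, peptide 1). That probe was fitted with 5 arrays and was not used where slide was a block. Each array's log2 processed signal was lowered by its 75th percentile. Probes called well above background in 3 or more arrays entered two-sided limma 3.58.1 fits (R 4.3.3), adjusted by Benjamini-Hochberg at 0.05. Each rat is counted as a separate animal, as the protocol describes. Slides were told apart by the identifiers of their scans alone. The number of arrays limits the precision. The fits were tested on simulated data. Summaries used Python 3.11.15.

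The members and lists were chosen with earlier results of these data known. The naming rule takes the 10 brightest probes, the 5 elements per direction with the largest strand difference, the 5 with its smallest SD, the 5 probes per direction with the smallest p, the 3 elements per direction with the smallest p for the strand ratio, and the 16 elements studied elsewhere. Other elements were named after their values were seen. Alternatives were other scalings, normexp (offset 50) on median spot signals, the deposited table, other filters, variance models and thresholds, blocks for replicate number or slide, and leaving out each array. Some elements of the last list are described by their host gene or role in place of their number, and not all are described.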

Additional observations from a re-analysis of the deposited data

Results flagged for a closer look

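In 2 elements the strand difference had one sign in all 3 controls and the other in all 3 peptide arrays. For uc.420 the fitted shift from control to peptide was -1.12 (limma adjusted p = 0.465 over all strand pairs). For uc.406 it was 0.61 (limma adjusted p = 0.465), and control 2 lay next to 0 there. The test of the difference between groups did not pass the adjusted threshold for either.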

How the results depend on the processing

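No ultraconserved probe passed the adjusted threshold under any alternative run, and strand ratios passed only without peptide 1 (48). The unadjusted counts at 0.05 were 40 probes and 35 strand ratios. The 5 higher and 35 lower probes became 44 and 20 after quantile normalization and in the deposited table, 1 and 234 with normexp, and 2 and 6 with the slide as a block. Higher probes were 33 after median scaling, 16 without a filter and 9 with trend and robust variance. With lower probes counted too, 6.74%, 5.74% and 6.62% were called, against 3.18%, 3.14% and 4.06% of all tested probes. In slide 1 alone, added after seeing the data, 0 were higher and 2 lower, with 5 strand ratios. Leaving out 1 array gave 1 to 34 higher and 4 to 286 lower probes (0.591% to 37.8% called, against 0.631% to 24.3% of all tested probes), 0 to 48 strand ratios past the adjusted threshold and 9 to 120 at the unadjusted one. The 35 strand ratios became 23 with both strands well above background on all 6 arrays, and 9 when slide was a block.

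With the replicate block 10 probes were higher and 18 lower (3.31% called, against 2.45% of all tested probes), and 0 passed. The deviations of same-numbered arrays correlated at -0.013, -0.19 and -0.236, and 0 arrays correlated best with their own number, so no pairing was seen.

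The percentile of the ultraconserved median was 16.3 with normexp and 15.6 to 16.3 without 1 control. Elements with one sign on all arrays numbered 361 without a filter, which covers more elements, and 63 of the 147 stayed at 4-fold in place of 2-fold. The correlation of strands was 0.172 with normexp, which adds an offset to every signal, and -0.026 to 0.058 without 1 array. Of the 10 named probes 8 kept their sign under all alternatives. The difference of uc.399- turned to -0.59 with normexp, and that of uc.448- to -0.0021 with normexp and to -0.045 with the slide as a block and in slide 1 alone. With normexp the strand ratio shift of uc.153 was 0.49 and that of uc.356 was 1.21. In 4 of the 6 named strand ratios a strand was well above background on no control array, so their sign is not read. The 15 named strand differences kept their sign, but normexp made all 10 of the steepest more than 1.5 times smaller in fold. Other causes were not tested.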
